A study of Mus musculus with 12 samples.

Results

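The genes described here are 10 genes of lipoprotein assembly, taken by symbol from the 24421 genes listed in the count tables: *Apoa1*, *Apoa2*, *Apom*, *Apob*, *Mttp*, *Apoa4*, *Apoa5*, *Apoc1*, *Apoc3* and *Apoe*. They were counted in the liver and the lung of newborn mice, in 12 libraries. The WT group was *Man1a2*+/+ and the null group *Man1a2*-/-, both newborns of *Man1a2*+/- parents of the line Man1a2tm1.1Ahe, a constitutive allele that lacks exon 2. Each genotype and tissue had 3 libraries, with RNA from 3 mice per genotype collected soon after birth (P0) and no treatment. The product of *Man1a2* is an enzyme of the Golgi that removes mannose residues from N-glycans, and the comparison asks what its absence changes in liver and in lung.

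Lipoproteins carry triglyceride and cholesterol through plasma. In the hepatocyte and the enterocyte, Apob is loaded with lipid by the microsomal transfer protein Mttp to form triglyceride-rich particles, whereas Apoa1 and Apoa2 form the shell of high-density lipoprotein (HDL). The smaller apolipoproteins exchange between particles and set how quickly lipoprotein lipase and the hepatic receptors clear them, and Apoe is a ligand through which remnants are taken up.

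Libraries held 26759463 to 42914295 counted reads, so that 3 reads were 0.0699 to 0.112 CPM (counted reads scaled to a common total). This detection floor reflects counting error alone. *Man1a2* itself was lower in each null library than in each WT library of its tissue, at 33.7 to 40.2 against 40.7 to 71.5 CPM in liver and at 55.9 to 63.4 against 105 to 148 CPM in lung. Its log2 fold change in null was −0.47 in liver (adjusted p = 0.0809, edgeR) and −1.01 in lung (adjusted p = 0.0614, edgeR), short of the threshold in both. In liver it passed with upper-quartile factors (adjusted p = 0.0366, edgeR), with DESeq2 (adjusted p = 0.0475) and without WT liver 2 (adjusted p = 0.0288, edgeR). The 6 liver libraries held hepatocyte markers at 148000 to 189000 CPM in sum over 7 genes, *Alb* and *Afp* among them, and 0 of the 7 were called between genotypes by edgeR (0 at an unadjusted p under 0.05) or by DESeq2. Some libraries stood apart. Null lung 1 had *Sftpc*, a surfactant gene of the alveolar epithelium, at 34.8 CPM where the other lungs had 15000 to 21000, muscle markers at 20700 CPM in sum over 7 genes where the other lungs had 267 to 682, and a correlation of 0.842 to 0.863 with the other lungs. Null liver 1 had the same muscle markers at 4440 CPM, where the other livers had 3.38 to 4.68. What the muscle RNA contributes to the results was not tested.

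*Apoa1*, *Apoc3*, *Apoa4* and *Apoa5* lie in 1 cluster on chromosome 9 of GRCm38, at chr9:46228580-46230466, chr9:46232933-46235636, chr9:46240696-46243459 and chr9:46268633-46271919. *Apoc3* is on the minus strand and the others are on the plus strand. The gaps between neighbours are 2.5, 5.1 and 25.2 kb, and the cluster spans 43.3 kb. *Apoe* and *Apoc1* lie 3.4 kb apart on the minus strand, at chr7:19696109-19699188 and chr7:19689481-19692660. *Apoa2* is at chr1:171225054-171226379 and *Apob* at chr12:7977648-8016835, both on the plus strand. *Apom* is at chr17:35128997-35132050 and *Mttp* at chr3:138089854-138144968, both on the minus strand, and *Mttp* is 37.4 Mb from *Man1a2* on the same chromosome. Transcripts on the opposite strand overlap exons of *Apoa4* over 634 bases, of *Apoa5* over 524 bases and of *Mttp* over 457 bases. Whether the counting used the strand is not given in the sources used here, so the counts of these genes are uncertain to that extent.

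RefSeq promoters, 250 bases before a start site to 50 after it on GRCm38.p6, were at hand for 8 of the 10 genes, the exceptions being *Apoc1* and *Apoc3*. Those of *Apoa1*, *Apoa4* and *Apoa5* are shown because these neighbours differed in their values in null liver. The plus strand is printed, from chr9:46228380-46228679, chr9:46240594-46240893 and chr9:46268358-46268657, and capitals mark a TATA box (TATAAA) or an E-box (CACGTG).
Apoa1: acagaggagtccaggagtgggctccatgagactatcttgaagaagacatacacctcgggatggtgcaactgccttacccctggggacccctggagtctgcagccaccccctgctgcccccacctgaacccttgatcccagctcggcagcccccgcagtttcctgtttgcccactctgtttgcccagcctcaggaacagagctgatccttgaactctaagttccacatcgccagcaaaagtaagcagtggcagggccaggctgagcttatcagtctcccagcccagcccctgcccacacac
Apoa4: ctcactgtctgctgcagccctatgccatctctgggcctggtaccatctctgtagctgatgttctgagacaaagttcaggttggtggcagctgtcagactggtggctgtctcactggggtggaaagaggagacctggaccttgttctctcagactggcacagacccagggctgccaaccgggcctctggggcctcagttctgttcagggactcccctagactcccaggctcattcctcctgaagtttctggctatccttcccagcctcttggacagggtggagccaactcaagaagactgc
Apoa5: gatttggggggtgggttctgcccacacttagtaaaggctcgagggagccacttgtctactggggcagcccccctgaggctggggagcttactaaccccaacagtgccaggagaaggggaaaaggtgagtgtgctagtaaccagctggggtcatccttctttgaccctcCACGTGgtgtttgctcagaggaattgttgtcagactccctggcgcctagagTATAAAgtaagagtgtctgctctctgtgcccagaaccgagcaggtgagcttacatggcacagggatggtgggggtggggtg
In the *Apoa5* promoter, the E-box spans bases −82 to −77 and the TATA box bases −31 to −26 from the start site. Of 32851 RefSeq promoters of this length, 7.15% hold CACGTG and 13.6% hold TATAAA on either strand. Other motifs searched on both strands included AGGTCA, a nuclear receptor half-site held by 16.3% of promoters, and CAAAGTCCA, an HNF4 site held by 0.475%. None of these 4 motifs is in the windows of *Apoa1*, *Apoa4*, *Apom* or *Mttp*. TATAAA is also in the window of *Apob*, at −60 to −55, and in that of the first listed start of *Apoa2*, at −212 to −207. Among further listed starts, AGGTCA is in the second window of *Apoa2* (minus strand, −238 to −233), TATAAA is in the second window of *Apoe* (−100 to −95 on the minus and −96 to −91 on the plus strand), and both *Apoa5* motifs recur in its second, overlapping window. The RefSeq start of *Apoa4* lies 148 bases inside the GENCODE gene, so that its window is partly within the transcript. The RefSeq start of *Mttp* lies 1550 bases inside its GENCODE gene, so the *Mttp* window is wholly within the gene. The *Apom* window is almost wholly within its gene, and the starts of *Apoa1* and *Apob* lie a shorter way inside theirs. For *Mttp* and *Apom*, the absence of motifs therefore does not cover the sequence before the GENCODE start.

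In null liver, *Apoa4* and *Apoa5*, both apolipoproteins of triglyceride-rich particles, fell to 23.1% and 34.4% of their WT means, and the other 8 genes were not called. Both genes that fell are in the chromosome 9 cluster, in which neither *Apoa1* nor *Apoc3* was called. A gene was called where edgeR's quasi-likelihood test gave an adjusted p under 0.05 and the change was at least 1.2-fold. The 2 called genes of 10 are no more than the background, since 26.9% of the 14343 genes tested in liver were called. Of the genes tested, 13.4% were called lower and 13.5% higher in null. The WT and null libraries did not overlap for 2 of the 10 genes, against 46.6% of all genes tested. The median log2 fold change was −0.07 over the 10 genes and 0.02 over all genes tested. In bulk tissue, fewer cells of a type and less RNA per cell cannot be told apart.

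**Figure D1:**
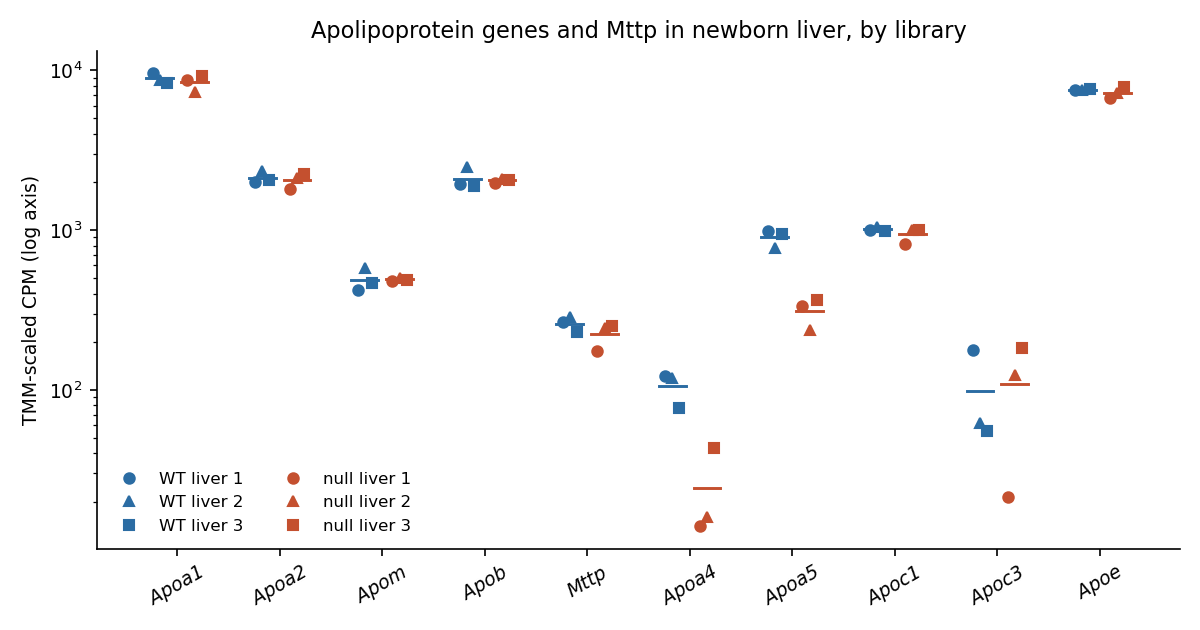
Level of the 10 genes in each liver library, in CPM scaled by TMM factors on a log axis, with WT in blue, null in red, 1 symbol for each library number and a bar at each group mean (n = 3). *Apoa4* and *Apoa5* are lower in the 3 null libraries than in the 3 WT libraries, *Apoc3* is scattered in both groups, and the other genes overlap.

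*Apoa4*, whose product rides on newly secreted triglyceride-rich particles and rises with fat load, was counted at 122, 118 and 76.5 CPM in WT livers 1, 2 and 3 and at 14.1, 15.9 and 43.2 CPM in null livers 1, 2 and 3. The highest null liver was below the lowest WT liver. WT averaged 106 ± 25.3 CPM and null 24.4 ± 16.3 CPM (SD, n = 3 each). On the log2 scale *Apoa4* fell by 2.12 ± 0.44 (standard error) with an adjusted p of 0.0131 in edgeR. Without null liver 1 it was −1.84 (adjusted p = 0.0149, edgeR), and over all alternatives the log2 fold change ranged from −2.82 to −1.84 and the adjusted p from 0.00127 to 0.0485. Of all genes tested in liver, 0.474% were called with a fall at least as large. *Apoa4* is also a gene of the gut epithelium, whose 8 markers summed to 9.94 to 16.8 CPM in WT and 5.90 to 7.41 CPM in null liver. Of the 3 gut markers with enough reads for a test, *Fabp2*, a fatty acid binding protein, was called lower (log2 fold change −1.43, adjusted p = 0.0171, edgeR), and *Muc13* (−0.26) and *Vil1* (0.36) were not called. *Fabp2* is part of the marker sum, at 5.93 to 13.2 CPM in WT and 2.49 to 4.16 CPM in null liver. The other gut markers had too few reads for a test. *Cdx1*, *Cdx2* and *Alpi* were at 0 to 0.141 CPM in the liver libraries. *Lct* was at 0.227 to 0.405 CPM in WT and 0.113 to 0.186 CPM in null liver, and *Cdh17* at 0.186 to 0.318 and 0.16 to 0.17 CPM. The part of gut RNA in the *Apoa4* values was not tested.

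*Apoa5*, a liver-made activator of triglyceride lipolysis, stood at 993, 768 and 949 CPM in WT livers 1, 2 and 3. In null livers 1, 2 and 3 it stood at 333, 236 and 363 CPM. The groups were well apart, with the highest null liver below the lowest WT liver. WT averaged 903 ± 119 CPM and null 311 ± 66.6 CPM (SD, n = 3 each), a fall by 1.54 ± 0.19 (standard error) on the log2 scale with an adjusted p of 0.0031 in edgeR. Without null liver 1 the value was −1.59 (adjusted p = 0.00388, edgeR). When the liver comparison was fitted together with the lungs, so that all 12 libraries shared 1 estimate of the spread, the same fold change had a standard error of 0.71 and was not called (adjusted p = 0.191, edgeR). In the other 16 alternatives *Apoa5* was called. For each of the 2 genes the two-sided exact permutation test gave p = 0.1, the smallest value that 3 libraries against 3 allow.

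The remaining exchangeable apolipoproteins behaved differently from each other. *Apoc3*, an inhibitor of lipolysis whose gene lies between *Apoa1* and *Apoa4*, was at 178, 62.4 and 55.0 CPM in WT livers 1, 2 and 3 and at 21.4, 123 and 183 CPM in null livers 1, 2 and 3. The lowest and the highest libraries were both null, so the genotypes overlapped fully. The fold change was 0.15 on the log2 scale with a standard error of 0.73 (adjusted p = 0.897, edgeR), and its sign depended on single libraries, from −0.44 without null liver 3 to 0.90 without WT liver 1. The SD of *Apoc3* within a genotype was 1.33 on the log2 scale, against a median of 0.182 over all genes tested, and 0.77% of genes were as variable. The 95% interval of its genotype difference ran from −1.55 to 1.84, so a change of 2-fold in either direction was not excluded by these libraries. *Apoc1*, which modulates lipid transfer and particle uptake, ranged from 982 to 1045 CPM in WT and from 823 to 1004 CPM in null liver (log2 fold change −0.10, standard error 0.12, adjusted p = 0.563, edgeR).

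Among the HDL proteins, *Apoa1*, the main structural protein of HDL, was at 9560, 8738 and 8362 CPM in WT livers 1, 2 and 3 and at 8691, 7264 and 9242 CPM in null livers 1, 2 and 3. The groups overlapped, and the log2 fold change of −0.08 was smaller than its standard error of 0.13 (adjusted p = 0.658, edgeR). *Apoa2*, the second structural protein of HDL, averaged 2131 ± 179 CPM in WT against 2046 ± 226 CPM in null libraries (SD, n = 3 each), and its log2 fold change of −0.06 had a 95% interval of −0.35 to 0.24. *Apom*, the carrier of sphingosine 1-phosphate on HDL, had means of 488 ± 81.6 and 492 ± 10.7 CPM, with an interval of −0.31 to 0.33. The sign of the *Apom* value turned negative under several scalings and left-out libraries, so it has no direction.

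The backbone of the triglyceride-rich particle and its loading protein were close to their WT levels. *Apob* was at 1937, 2463 and 1894 CPM in WT livers 1, 2 and 3 and at 1984, 2096 and 2067 CPM in null livers 1, 2 and 3, so the null values lay within the WT range. Its log2 fold change was −0.03 with a 95% interval of −0.34 to 0.27. *Mttp* was at 265, 285 and 231 CPM in WT and at 175, 244 and 250 CPM in null, and null liver 1 alone lay below the WT range. The log2 fold change of *Mttp* was −0.22 with a 95% interval of −0.60 to 0.16 (adjusted p = 0.347, edgeR), and it was −0.07 (adjusted p = 0.741) without null liver 1. *Apoe*, the receptor ligand, varied least, from 7532 to 7587 CPM in WT and from 6714 to 7883 CPM in null liver, with a log2 fold change of −0.06 and an interval of −0.30 to 0.18. For the 7 uncalled genes other than *Apoc3*, the 95% intervals together ran from −0.60 to 0.33, which leaves room for small differences in either direction.

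**Figure D2:**
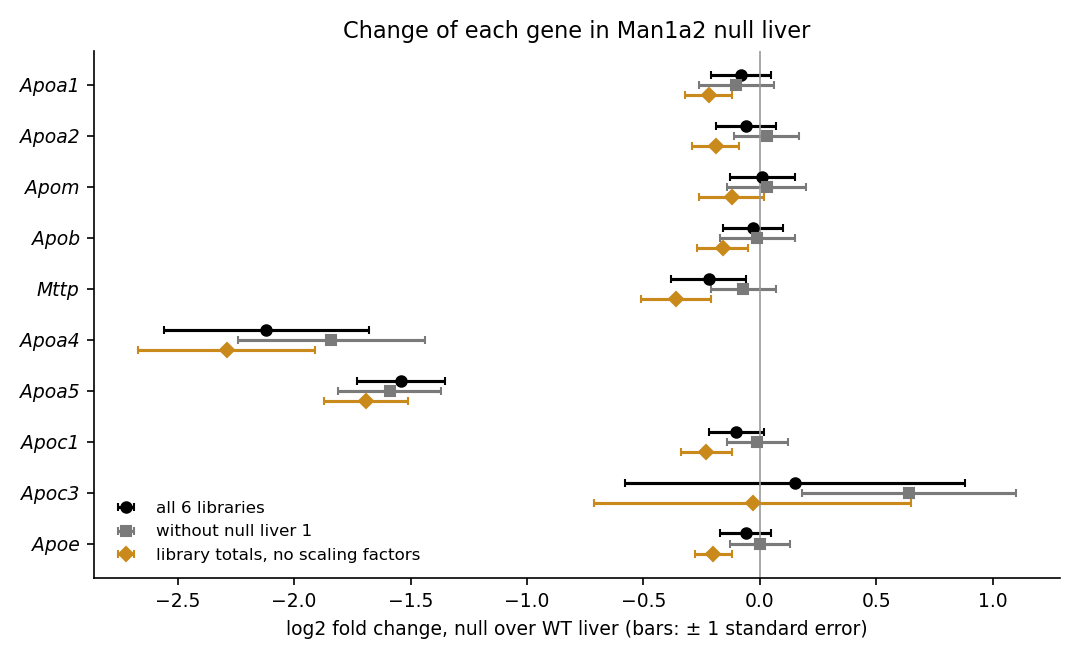
Log2 fold change of each gene, null over WT liver, with bars of ± 1 standard error, for all 6 libraries (black), without null liver 1 (grey) and with libraries scaled by their totals alone (orange). *Apoa4* and *Apoa5* lie far below 0 in the 3 fits, the bar of *Apoc3* is the widest, and scaling by totals alone moves the other genes to slightly lower values.

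The scaling matters for genes this abundant. The 10 genes took 2.545, 2.396 and 2.452% of the counted reads in WT livers 1, 2 and 3 and 2.098, 2.067 and 2.072% in null livers 1, 2 and 3. The groups did not overlap, and the 95% Wilson interval of WT liver 1, for example, was 2.539 to 2.55%. The mean share was 2.46 ± 0.075% in WT and 2.08 ± 0.017% in null (SD, n = 3 each), a difference of −0.385 percentage points (two-sided exact permutation test, p = 0.1, the smallest possible). Of that difference, *Apoa1* accounted for 34.2%, *Apoe* for 26.4%, *Apoa5* for 17% and *Apoa4* for 2.3%. On the TMM scale, which takes most genes as unchanged, the same genes summed to 23540 ± 754 CPM in WT against 21850 ± 1660 CPM in null libraries (SD, n = 3 each), and null liver 3, at 23750 CPM, lay within the WT range. The TMM factors were 1.002 to 1.082 in WT and 0.873 to 1.001 in null. With library totals alone, the median of all genes moved from 0.02 to −0.11, that of the 10 genes from −0.07 to −0.21, and the called genes remained 2 of 10. The split of calls over all genes then went from 50.1% higher in null to 31.9% higher, and to 35.0% with upper-quartile factors.

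Levels per length were taken in TPM, reads divided by the merged exonic length of a gene and scaled to a common total. This covered 23349 genes of known length. No mitochondrially encoded gene is listed, and the haemoglobin genes listed held only 2853 reads in the 12 libraries together. The ranks and TPM therefore leave these transcripts almost wholly out. The merged length joins all annotated exons of a gene and is not that of a single transcript, so the order of genes may depend on it. In these units *Apoa1* was the 4th most abundant listed gene of WT liver, at 21600 ± 2010 TPM, and *Apoa2* the 7th, at 11900 ± 414 TPM (SD, n = 3). *Apoe* followed at 10600 ± 567 TPM, *Apoc1* at 4060 ± 83.3, *Apom* at 1440 ± 168 and *Apoa5* at 1080 ± 191 TPM, and each of these 6 was above the next in each WT library. *Apob*, *Apoc3*, *Apoa4* and *Mttp* were lower, from 449 ± 43.3 to 125 ± 8.78 TPM, and in that order each overlapped its neighbour. In null liver the first 5 kept their order. *Apoa5*, at 339 ± 60.2 TPM, then ranked below *Apob*, at 407 ± 30.6 TPM, though the libraries of the 2 genes overlapped. *Apoa4* went from rank 615 among the listed genes in WT to rank 2753 in null liver, at 35.9 ± 21 TPM, and was the least abundant of the 10.

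**Figure D3:**
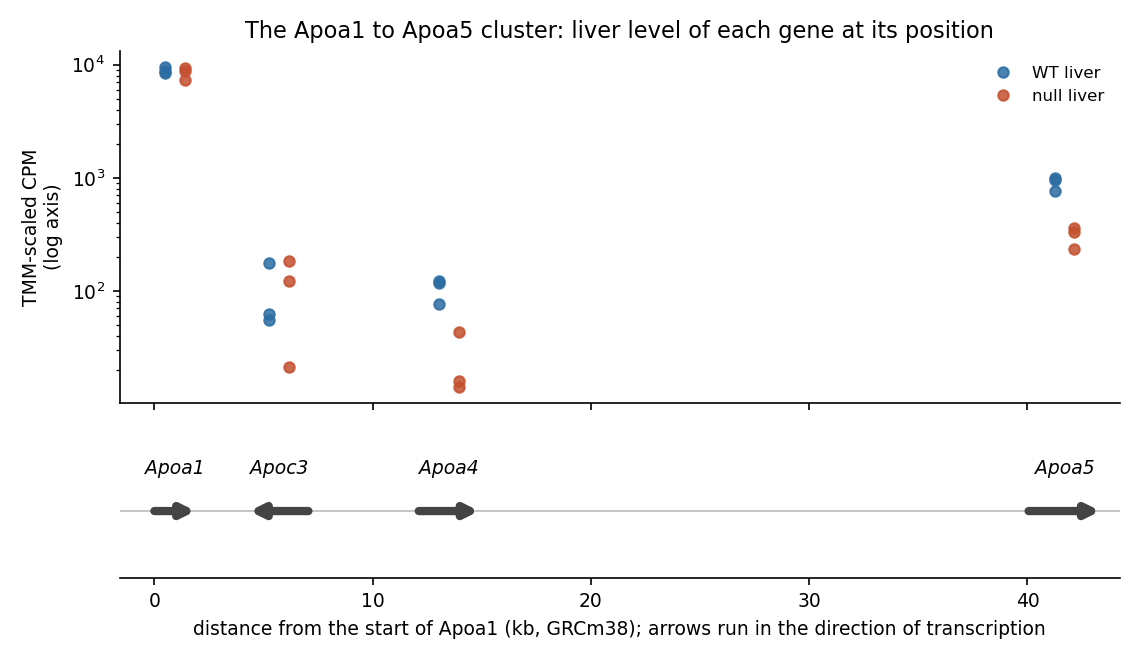
The *Apoa1* to *Apoa5* cluster, with distance from the start of *Apoa1* in kb on the lower axis, genes as arrows in the direction of transcription, and above them the CPM of each WT (blue) and null (red) liver library on a log axis. Null libraries are lower for *Apoa4* and *Apoa5*, and the genotypes overlap for *Apoa1* and *Apoc3*.

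Other genes near the 10 were also compared. GENCODE places 53 genes of the count tables within 100 kb of them, of which 41 had enough reads in liver. Of these, 9 were called (22.0%), 5 higher and 4 lower, no more than the 26.9% of all genes tested in liver. Beside the chromosome 9 cluster, 2 of 3 tested neighbours rose: *Sik3*, a salt-inducible kinase, by 0.67 on the log2 scale (adjusted p = 0.00908, edgeR), and *Bud13*, a splicing factor, by 0.61 (adjusted p = 0.0439, edgeR). The *Bud13* call held in 2 of the 6 fits made without 1 library each and was lost with libraries blocked by number. Beside *Apoe* and *Apoc1*, the mitochondrial import gene *Tomm40* fell (log2 fold change −0.79), whereas *Relb* (1.59) and *Cblc* (0.98) rose. The apolipoprotein genes of that locus outside the 10, *Apoc4* (−0.14) and *Apoc2* (−0.15), were not called. Beside *Apoa2*, *Nr1i3*, which encodes the xenobiotic receptor CAR, and *Pcp4l1* fell (−0.91 and −1.37). Beside *Apom*, *D17H6S53E* fell (−1.19) and *Gpank1* rose (0.65), and beside *Mttp* 0 of 2 were called by edgeR.

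In null liver, other genes of lipoprotein handling moved in both directions. Over 5 pathway lists, 63 of 65 genes had enough reads for a test in liver, and 23 were called, 13 higher and 10 lower in null. That is 36.5%, against the background of 26.9% over all genes, and the median log2 fold change was 0.16. The balance depended on the scaling, with 8 higher, 12 lower and a median of 0.01 with library totals alone, and 9 higher, 12 lower and a median of 0.05 with upper-quartile factors. The count ranged from 12 (without WT liver 1 or without WT liver 3) to 25 (without null liver 1) when libraries were left out. It was 27 of 64 with DESeq2, against 23.7% of 19130 genes, any without an adjusted p included. With all 12 libraries in 1 fit it was 7 of 64, against 11.9% of all genes, so that the lists then held no larger share of calls than the background. Members of these lists that are also macrophage genes are measured together with the tissue's blood cells. Macrophage markers summed to 717 to 813 CPM in WT and 629 to 857 CPM in null liver, with 1 of 8 called, and neutrophil markers to 1770 to 3340 and 2080 to 3680 CPM, with 2 of 7 called higher. What these cells contribute was not tested.

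**Figure D4:**
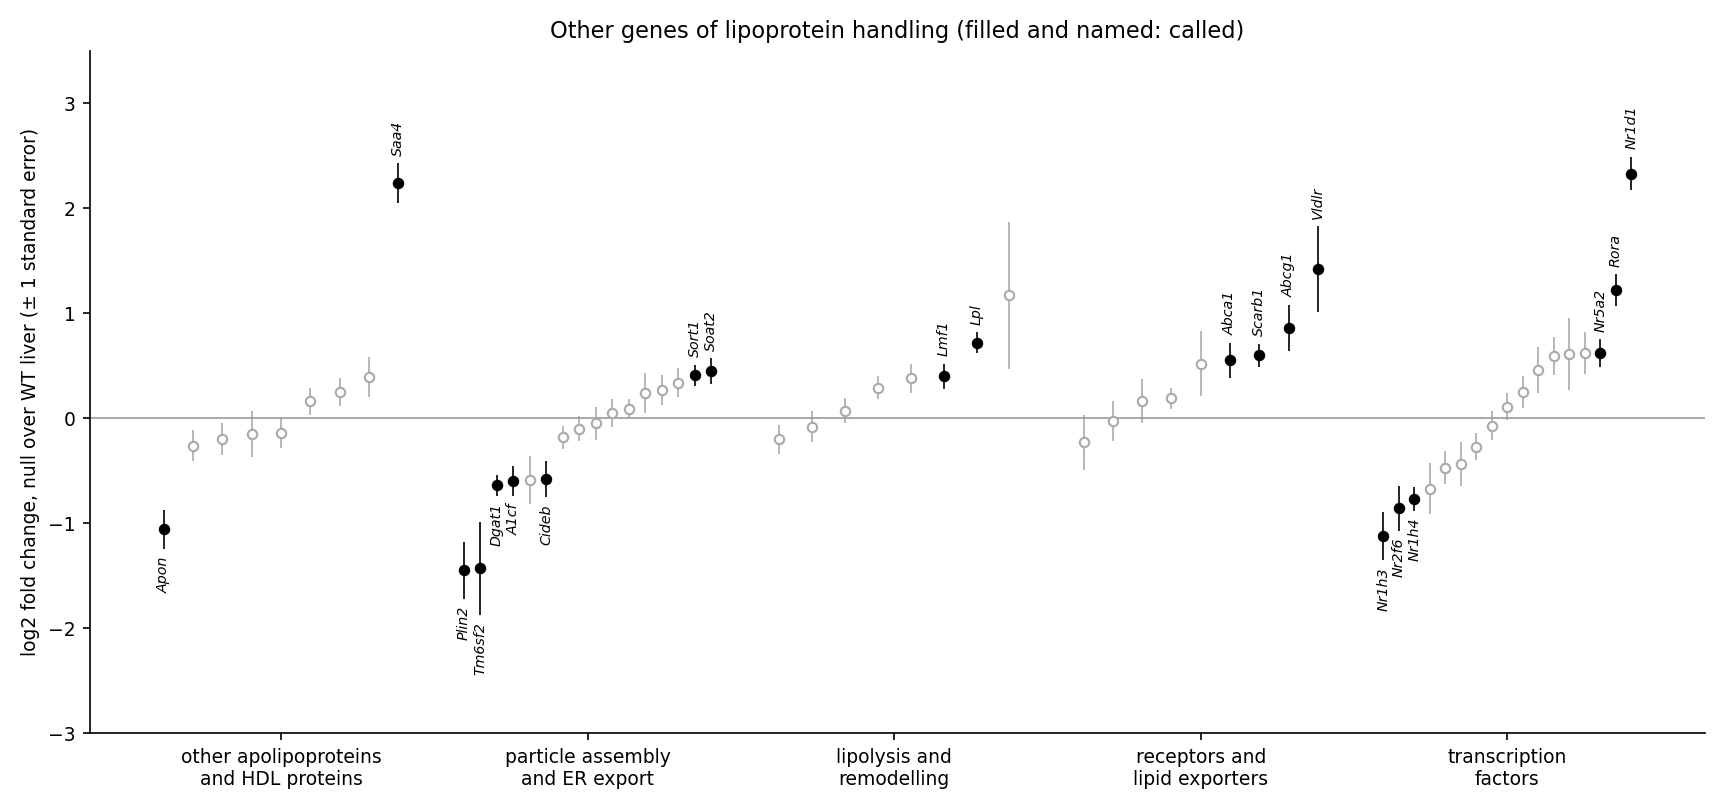
Log2 fold change, null over WT liver, of tested genes in the 5 pathway lists, some left out, with bars of ± 1 standard error. Called genes are filled and named, and uncalled genes are open. The called genes among receptors and lipid exporters are all above 0, and those of assembly and of the transcription factors lie on both sides.

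Among genes of particle assembly and export from the endoplasmic reticulum, 7 of 16 were called, 5 lower and 2 higher, with a median log2 fold change of −0.07. That is 43.8%, against 26.9% of all genes tested, and the count was 2 of 16 with all 12 libraries in 1 fit. *Plin2*, the coat protein of lipid droplets, fell from 615 ± 85.1 to 224 ± 83.0 CPM (SD, n = 3 each, log2 fold change −1.45, adjusted p = 0.00889, edgeR). *Tm6sf2*, needed to lipidate Apob particles, fell from 12.4 ± 2.37 to 4.58 ± 3.18 CPM (−1.43, adjusted p = 0.0475, edgeR), a call that held in 1 of the 6 fits made without 1 library each and was lost without null liver 1 (−1.11, adjusted p = 0.0598, edgeR). Without that library 5 of the 16 genes were called, 3 lower and 2 higher. *Dgat1*, which makes triglyceride, fell from 23.7 ± 1.13 to 15.2 ± 1.15 CPM (−0.64, adjusted p = 0.00653, edgeR). *Soat2*, which esterifies cholesterol (0.45), and *Sort1*, a sorting receptor that binds Apob (0.41), rose. The *Soat2* call held in 1 of the 6 fits, and under library totals alone or upper-quartile factors 0 genes of this list were called higher. *Sar1b*, *Surf4* and *Dgat2*, which serve the export and loading of particles, had log2 fold changes of −0.05, 0.05 and −0.10 and were not called.

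Of the other apolipoproteins and HDL proteins, 2 of 9 were called (22.2%, against 26.9% of all genes tested). *Saa4*, a constitutive serum amyloid A of HDL, rose from 5.73 ± 1.26 to 27.1 ± 4.39 CPM (SD, n = 3 each, log2 fold change 2.24, adjusted p = 0.00201, edgeR). *Apon*, a rodent apolipoprotein, fell from 28.7 ± 3.91 to 13.7 ± 3.55 CPM (−1.06, adjusted p = 0.00851, edgeR). Among genes of lipolysis and remodelling, 2 of 9 were called (also 22.2%), both higher. *Lpl*, lipoprotein lipase itself, was at 754, 758 and 708 CPM in WT livers 1, 2 and 3 and at 1210, 1260 and 1190 CPM in null livers 1, 2 and 3. *Lpl* thus rose by 0.72 on the log2 scale (adjusted p = 0.00423, edgeR) with little spread, and was called whichever library was left out (6 of 6 fits). With all 12 libraries in 1 fit it was not called (standard error 0.28, adjusted p = 0.117, edgeR). Its maturation factor *Lmf1* rose by 0.40 (adjusted p = 0.0382, edgeR), a call that held in 1 of the 6. The lipase inhibitor *Angptl4* (0.38) was not called.

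Among lipoprotein receptors and lipid exporters, 5 of 11 were called, all 5 higher in null liver, with a median log2 fold change of 0.52. That is 45.5%, against 26.9% of all genes tested, of which 13.5% were called higher. The count was 3 with library totals alone, 3 with the replicate block and 1 with all 12 libraries in 1 fit, each time higher. *Vldlr*, a receptor for triglyceride-rich particles, rose from 4.23 ± 1.30 to 11.3 ± 5.98 CPM (SD, n = 3 each, log2 fold change 1.42, adjusted p = 0.0391, edgeR), called in 2 of the 6 fits without 1 library. *Abcg1*, an exporter of cholesterol to HDL, rose from 12.1 ± 2.85 to 21.9 ± 4.26 CPM (0.86, adjusted p = 0.0250, edgeR), called in 3 of the 6. The HDL receptor *Scarb1* (0.60) and the cholesterol exporter *Abca1* (0.55) also rose, with *Abca1* called in 1 of the 6.

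Of the transcription factors known to act on hepatic apolipoprotein genes, 7 of 18 were called, 3 higher and 4 lower, or 3 and 6 with library totals alone. That is 38.9%, against 26.9% of all genes tested, and the count was 3 of 18 with all 12 libraries in 1 fit. *Nr1d1*, a clock repressor (REV-ERBα), was at 18.1, 13 and 12.3 CPM in WT livers 1, 2 and 3 and at 69.2, 73.8 and 75.2 CPM in null livers 1, 2 and 3. It rose by 2.33 on the log2 scale (adjusted p = 0.00164, edgeR). *Rora*, which binds the same response elements, rose from 45.5 ± 4.55 to 106 ± 18.3 CPM (SD, n = 3 each, 1.22, adjusted p = 0.00306, edgeR), and *Nr5a2* rose by 0.62. *Nr1h3*, the liver X receptor LXRα, fell from 30.4 ± 6.97 to 14.0 ± 3.61 CPM (−1.12, adjusted p = 0.0120, edgeR), and *Nr2f6* fell by 0.86 on the log2 scale. *Nr1h4*, the bile acid receptor FXR, fell by 0.77 as well. *Hnf4a*, at 401 ± 53.1 and 433 ± 24.3 CPM, was not called (0.11, adjusted p = 0.565, edgeR), nor were *Creb3l3* (−0.27) and *Ppara* (−0.47, adjusted p = 0.0634). Between genotypes in lung, 1 of 14 tested factors was called. That was *Nr1d1*, at 2.82 on the log2 scale, called in 8 of 17 alternatives. *Rora*, at 1.19 in lung, was not called (adjusted p = 0.0541, edgeR). The interaction with tissue was not called for *Nr1d1* (−0.49, adjusted p = 0.604, edgeR) or *Rora* (0.03, adjusted p = 0.976, edgeR).

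All 10 genes were much higher in liver than in lung in both genotypes, as tested in 1 fit of the 12 libraries. The log2 fold change of WT liver over WT lung ranged from 4.54 for *Apoe* to 10.12 for *Apoa5* (highest adjusted p = 0.000213, edgeR), against 30.3% of 16155 genes called higher in liver. That of null liver over null lung ranged from 4.47 for *Apoe* to 10.26 for *Apoa5* (highest adjusted p = 0.000263, edgeR), against 27.9% called higher. Without null lung 1, the 10 of 10 were called in both genotypes. The sizes moved when the lungs with the highest hepatocyte marker levels were left out. Without WT lung 1 the median in WT went from 9.71 to 11.7, with *Apoa1* at 12.25, *Apoa4* at 13.12 and *Apoe* at 4.67. Without null lung 2 the median in null went from 9.23 to 10.56. With DESeq2 the called genes were 7 of 7 that received a p-value, as *Apoa1*, *Apoa2* and *Apoa5* received none.

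In lung the 10 genes fell into those near the level of the hepatocyte markers and those far above it. Each lung value was taken as a percentage of the mean liver value of the same genotype. In WT lung 1, *Alb* stood at 0.257% of its liver level and 7 hepatocyte markers at 0.194 to 0.304%, and *Apoa1*, *Apoa2*, *Apom*, *Apob*, *Apoa4*, *Apoa5* and *Apoc3* at 0.220 to 0.328%. In WT lung 2 the markers were at 0.0121 to 0.0452% and the same 7 apolipoprotein genes at 0 to 0.0938%. *Apob* lay above the marker range in the 3 WT lungs. It was at 0.328% in WT lung 1, at 0.0938% in WT lung 2 (98 reads) and at 0.069% in WT lung 3, where the markers reached 0.0547%. In the null lungs *Apob* lay within the marker range. In null lung 2 the markers were at 0.161 to 0.415% and *Apoa1* at 0.305%. *Apoa4* lay above the marker range in the 3 null lungs, at 0.358, 0.571 and 0.637% in null lungs 1, 2 and 3, values that rest on 4, 9 and 11 reads and on its low level in null liver. Across the 6 lungs *Apoa1* ranged from 2.29 to 48.4 CPM and *Alb* from 23.1 to 404 CPM, and the highest libraries of both were WT lung 1 and null lung 2. What liver RNA contributes to the lung values of these 7 genes was not tested.

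*Apoe*, *Apoc1* and *Mttp* were the exceptions. *Apoe*, which macrophages and other lung cells also make, was at 633, 498 and 539 CPM in WT lungs 1, 2 and 3 and at 309, 716 and 658 CPM in null lungs 1, 2 and 3, or 2.45 to 5.83% of its liver level. The lowest of these was null lung 1, the library with few lung markers, and the 5 others varied by 1.44-fold. *Apoc1* was at 34.9, 16.8 and 18.5 CPM in WT lungs 1, 2 and 3 and at 7.65, 42.3 and 30.9 CPM in null lungs 1, 2 and 3, between 0.467 and 2.65% of liver. *Mttp* ranged only from 3.54 to 6.21 CPM, or 0.790 to 1.64% of liver, and did not follow *Alb* from library to library. *Apoe* made up 84.5 to 94.6% of the lung reads on the 10 genes and *Apoa1* 0.434 to 6.46%, against 31.4 to 34.5% and 35.0 to 41.3% in liver.

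**Figure D5:**
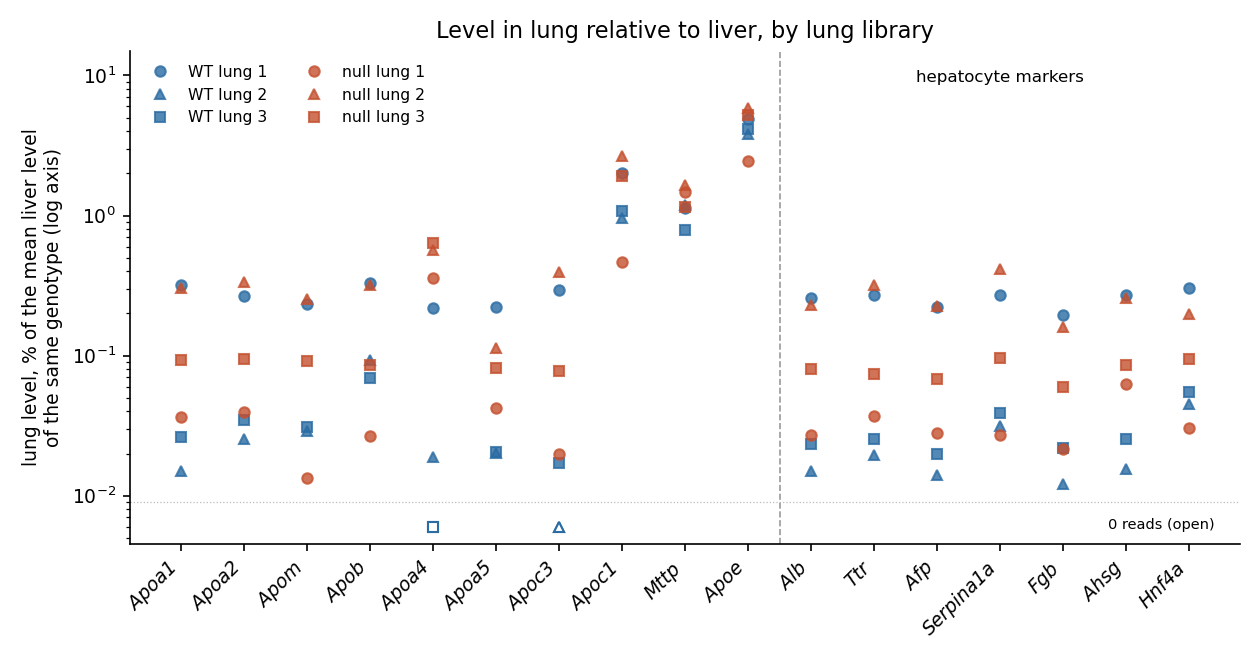
Level of the 10 genes (left of the dashed line) and of 7 hepatocyte markers (right) in each lung library, as a percentage of the mean liver level of the same genotype on a log axis, with WT in blue and null in red. Open symbols below the dotted line are libraries with 0 reads. *Apoe*, *Apoc1* and *Mttp* lie above the range of the hepatocyte markers, and *Apoa1* and *Alb* move together from library to library. *Apoa4* lies above the markers in the 3 null lungs, and *Apob* lies above them in the 3 WT lungs.

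Between genotypes in lung, 0 of the 8 genes with enough reads were called by edgeR (0 at an unadjusted p under 0.05), against 0.327% of 15591 genes. DESeq2 called 0 of the 9 to which it gave an adjusted p, against 11.8% of 20021 genes, those without an adjusted p included. *Apoa4* and *Apoc3*, with 0 to 17 and 0 to 28 reads per lung, did not pass the filter. The standard errors were wide, from 0.28 for *Mttp* to 1.28 for *Apoa1*. The log2 fold change of *Apoe* was 0.01 with a 95% interval of −0.81 to 0.84, and that of *Mttp* 0.23 with an interval of −0.44 to 0.91. Without null lung 1, 37.0% of all genes were called, still 0 of 10 of these genes (edgeR, 1 at an unadjusted p under 0.05), and *Apoe* was at 0.30 (standard error 0.12, adjusted p = 0.0902, edgeR). The lung value of *Apoa5* was −1.67 on the log2 scale, with a standard error of 1.05 (adjusted p = 0.358, edgeR), from 147, 9 and 11 reads in WT and 6, 23 and 18 reads in null lungs, so that WT lung 1 alone set the WT mean.

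The genotype effect was compared between tissues as an interaction term over the 12 libraries. By edgeR, 0 of the 10 genes were called, against 0.371% of 16155 genes. An unadjusted p under 0.05 was found for 1 of the 10, against 2239 of the 16155. DESeq2 called 0 of the 7 it gave a p-value, against 3.02% of 20414 genes, those without a p-value included. The gene below 0.05 was *Apoa4*, whose change in liver was lower than that in lung by 2.58 on the log2 scale (log2 difference −2.58, standard error 1.13, unadjusted p = 0.0443, adjusted p = 0.348). Its adjusted p ranged from 0.145 to 0.566 over the alternatives, and its lung counts were close to the floor. The interaction of *Apoa5* was 0.14 with a 95% interval of −2.07 to 2.35, so the data do not tell whether its fall differs between the tissues.

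For each gene, the tested gene with the most similar profile was found over the 12 libraries, by the root mean square difference (RMS) of log2 CPM after each gene was centred on its own mean. The 12 libraries include both tissues, so the likeness covers the difference between liver and lung as well as that between libraries. *Apom* was nearest to *Rdh7*, a retinol dehydrogenase (RMS 0.153), *Mttp* to *Pla2g12b*, a gene of lipoprotein secretion (0.167), *Apoe* to *Sephs2*, of selenoprotein synthesis (0.192), *Apoa2* to *Apcs*, serum amyloid P (0.202), and *Apoa1* to *Kng1*, kininogen (0.218). *Apob* was nearest to *Fbp1*, of gluconeogenesis (0.292), and *Apoc1* to *Cth*, of cysteine synthesis (0.318). *Apoa5* was nearest to *G6pc*, glucose-6-phosphatase (0.419), *Apoa4* to *Ehhadh*, a peroxisomal enzyme of fatty acid oxidation (0.542), and *Apoc3* to *Otc*, of the urea cycle (0.718). *Apoa4* and *Apoc3* had the least close partners. No gene had another of the 10 as its nearest, and the closest pair among them was *Apom* and *Apob*, at 0.349.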

How the data were processed

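Liver and lung RNA of newborn *Man1a2* WT and null mice was sequenced as strand-marked, polyadenylated libraries. The authors deposited 1 table per library of raw counts, integer read totals by gene symbol, not normalized. The submitters' processing notes name FastQC, STAR 2.5.2a, DESeq2 and mm10. The counting program, its strand setting and the annotation are not given in the sources used here. No mitochondrially encoded gene is listed, and 27 gene names that were dates or repeated were tested but not named.

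Counts were analysed with edgeR 4.0.16 in R 4.3.3: filterByExpr, TMM factors, the quasi-likelihood test and Benjamini-Hochberg adjustment over all genes tested. Genotypes were compared within each tissue (6 libraries), and tissues and the interaction in a fit of all 12. Genes with an adjusted p under 0.05 and at least 1.2-fold change were called, the study's cut-off. Standard errors were derived as |log2 fold change| / √F. Exact permutation tests used log2(CPM + 0.5). CPM of the 10 genes and of pathway genes are scaled by TMM factors within a tissue, except percentages of liver level (factors over 12 libraries), and CPM of markers and *Man1a2* are scaled by total counts. Intervals of log2 fold changes are 95% t intervals from these errors and edgeR's degrees of freedom (7.6 in liver, 6.2 in lung, 10.4 over 12 libraries) and carry the spread between libraries, whereas Wilson intervals and floors cover counting error only, as reads copied by PCR are not independent. Lengths for TPM were merged exonic lengths from GENCODE M21, which covers 95.6% of listed genes. No library was a copy of another (lowest chi-square per gene 15.4).

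The genes and the pathway and marker lists were chosen with earlier results of these data known. Named pathway genes are the 3 largest called rises and 3 largest called falls of each list, apart from some genes that are counted in the lists but not reported here. *Cideb*, *A1cf* and other called genes beyond that are not detailed, and *Scarb1*, *Abca1*, *Nr1h4* and the uncalled pathway genes were named after their values were seen. Alternatives were DESeq2 1.42.0, other scalings, filters, no minimum fold, a GC and length trend (span 0.3), all 12 libraries in 1 fit, a replicate block and each library left out; scaling by totals alone was added after seeing the data. The fits were tested on simulated data. Deviations of liver and lung of 1 number were correlated at 0.334 to 0.424 in null and at 0.11 to 0.16 in WT. Both null libraries of number 1 held muscle RNA. The WT values were near the highest between WT and null livers of 1 number (0.116). Whether the numbers pair liver and lung is thus uncertain, most of all in WT. The blocked fit called the same 10 genes between tissues.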

Additional observations from a re-analysis of the deposited data

How the results depend on the processing

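In liver the number of called genes was 2 of 10 in each alternative, leave-outs included (2 to 2), except 1 with all 12 libraries in 1 fit. In lung and for the interaction it was 0 under each. Between tissues it was 10, or 7 with DESeq2, and 6 of 6 tested with at least 10 counts in every library, where the filter removed the other 4, in WT and in null. The share of liver reads differed by −0.123 percentage points without *Apoa1*, *Apoa2* and *Apoe*, where fewer reads enter, and by −0.419 to −0.345 with a library left out. It did not change without haemoglobin, but the 10 haemoglobin genes listed held only 2853 reads in the 12 libraries together. Leaving them out could therefore hardly move the share. Mitochondrially encoded genes could not be left out because none is listed.

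Uncalled liver values changed sign in places, and the cause was not tested. *Apom* went to −0.10 (upper-quartile factors), −0.02 (at least 10 counts) and −0.12 (totals alone), and *Apoc3* to −0.03 (totals alone). Leaving out libraries gave −0.12 to 0.03 for *Apoa2*, −0.09 to 0.15 for *Apom*, −0.10 to 0.10 for *Apob* and −0.44 to 0.90 for *Apoc3*. In lung *Apoe* went to −0.04 (upper-quartile factors), −0.07 (replicate block) and −0.12 (totals alone), with −0.20 to 0.30 over left-out libraries, and *Apoc1* to −0.28 to 0.64.

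Counts over all genes moved more. Liver calls numbered 3856, but 1921 with 12 libraries in 1 fit, 2522 with the GC and length trend removed, and 1641 without WT liver 3, 2150 without WT liver 1 and 2268 without WT liver 2. Lung calls numbered 51, against 2 with DESeq2's size factors, 109 with upper-quartile factors, 210 with at least 10 counts, 317 with totals alone, 2284 with all 12 libraries in 1 fit, 2355 with DESeq2 and 5881 without null lung 1. They were 0 in the remaining leave-outs, with no low-count filter, with the trend removed and with the replicate block. Interaction calls numbered 60, from 0 with the replicate block and in some leave-outs to 617 with DESeq2 and 813 without null lung 1. WT and null libraries of 1 number share only the number (correlations −0.101 to 0.116). With the replicate block the liver genes called were 2 of 10, the share difference was −0.385 (exact sign-flip test, p = 0.25, the smallest possible), and pathway genes called were 19 of 63 in place of 23.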
